A study of Mus musculus with 7 samples.

Results

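The 10 genes described here encode ligands and receptors of vascular endothelial growth factor (VEGF) and angiopoietin signalling, the pathways through which blood and lymphatic endothelium is formed and maintained. They were chosen by gene symbol (Vegfa, Vegfc, Kdr, Flt1, Flt4, Tek, Tie1, Angpt1, Angpt2 and Nrp1) among 24328 symbols, and all 10 were detected in every library. Kidneys of 3 LBR-null mice (Lbric-J/ic-J, numbered 4001, 4002 and 4007), which lack a working lamin B receptor, a protein of the inner nuclear membrane that tethers heterochromatin, were compared with the kidney of 1 wild-type littermate (Lbr+/+, number 4009). All mice were C57BL/6J and 4 weeks old, and the allele was present in every cell type of the body. There were 7 libraries, 2 from each mouse except mouse 4002 with 1, and the mean of the libraries of a mouse was used as its value, so that n counts mice. The unit was the normalized read count, that is, reads on a gene divided by the size factor of the library.

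VEGF-A, made in the kidney mainly by podocytes and tubule cells, acts on the endothelial receptor VEGFR2 (Kdr) to keep glomerular and peritubular capillaries fenestrated, and VEGFR1 (Flt1) binds the same ligand with high affinity and limits how much of it reaches VEGFR2. VEGF-C acts on VEGFR3 (Flt4) in lymphatic and some capillary endothelium, and neuropilin-1 (Nrp1) is a co-receptor for VEGF. Angiopoietin-1 from perivascular and mesenchymal cells activates the receptor TIE2 (Tek), angiopoietin-2 from endothelium and some perivascular cells modifies or opposes that signal, and TIE1 forms complexes with TIE2.

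Libraries held between 20694016 and 26333284 reads on genes. One mouse stood apart. Mouse 4001 had RNA of both Xist (5785 normalized counts) and the Y-linked gene Ddx3y (141), whereas mouse 4007 was high in Xist (9940.2) and low in Ddx3y (44.3), and mouse 4002 (65.3 and 1516) and the WT mouse (35.5 and 1284) were low in Xist and high in Ddx3y. The labels give no sex. In Xist and Ddx3y, mouse 4002 had the pattern of the WT mouse, mouse 4007 had the opposite pattern, and mouse 4001 matched neither. Sex may thus differ between the WT mouse and some LBR-null mice, and its part in the differences below was not tested. Results are also given without mouse 4001, and for Flt1, Apln and Aplnr as a log2 difference of mouse 4002 alone. For the other genes described, the counts of each mouse or the group means are given. Lbr itself had 322, 340 and 471 normalized counts in LBR-null mice 4001, 4002 and 4007 and 398 in the WT mouse, so the level of the transcript does not check the genotype. Kidney markers were present in both groups, and those of cell types whose level differed are given with the results.

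None of the 10 genes passed the test between LBR-null and WT kidneys, and none differed 2-fold. All 5 LBR-null libraries were above both WT libraries for Flt1 and Angpt2, which were at 1.59 and 1.52 times the WT level, and all 5 were below for Flt4, Tie1 and Nrp1, at 0.756, 0.877 and 0.744 times. Kdr and Tek, the main signalling receptors of both pathways, were at 0.995 and 1.01 times the WT level. A separation of this kind was common in these data. Of 17283 genes tested, 25.5% had all 5 LBR-null libraries above both WT libraries and 25.7% had all 5 below, together 51.1%, against 5 of the 10 genes, so that their share was near the background. limma with Benjamini-Hochberg adjustment called 0 of the 10 genes (adjusted p under 0.05 with a change of at least 2-fold) and 0% of all genes tested. On the reads recovered from the normalized counts, edgeR called 0.162% of all genes and DESeq2 called 6.42%, and neither called any of the 10. The limma count over all genes depended on the mice in the fit, and was 6.76% without mouse 4001, 3.62% without mouse 4002 and 0% without mouse 4007, with 0 of the 10 genes called in each of these fits. At an unadjusted limma p under 0.05, 1 of the 10 (Flt1) was higher and 0 were lower, against 10.7% and 8.05% of all genes. At least 2-fold higher were 14.5% of all genes and 7.04% were at least 2-fold lower, against 0 of the 10. With 1 WT mouse, an exact permutation test of a single gene could not go below p = 0.25, and limma assumed that the WT mouse varied as the LBR-null mice did.

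**Figure D1:**
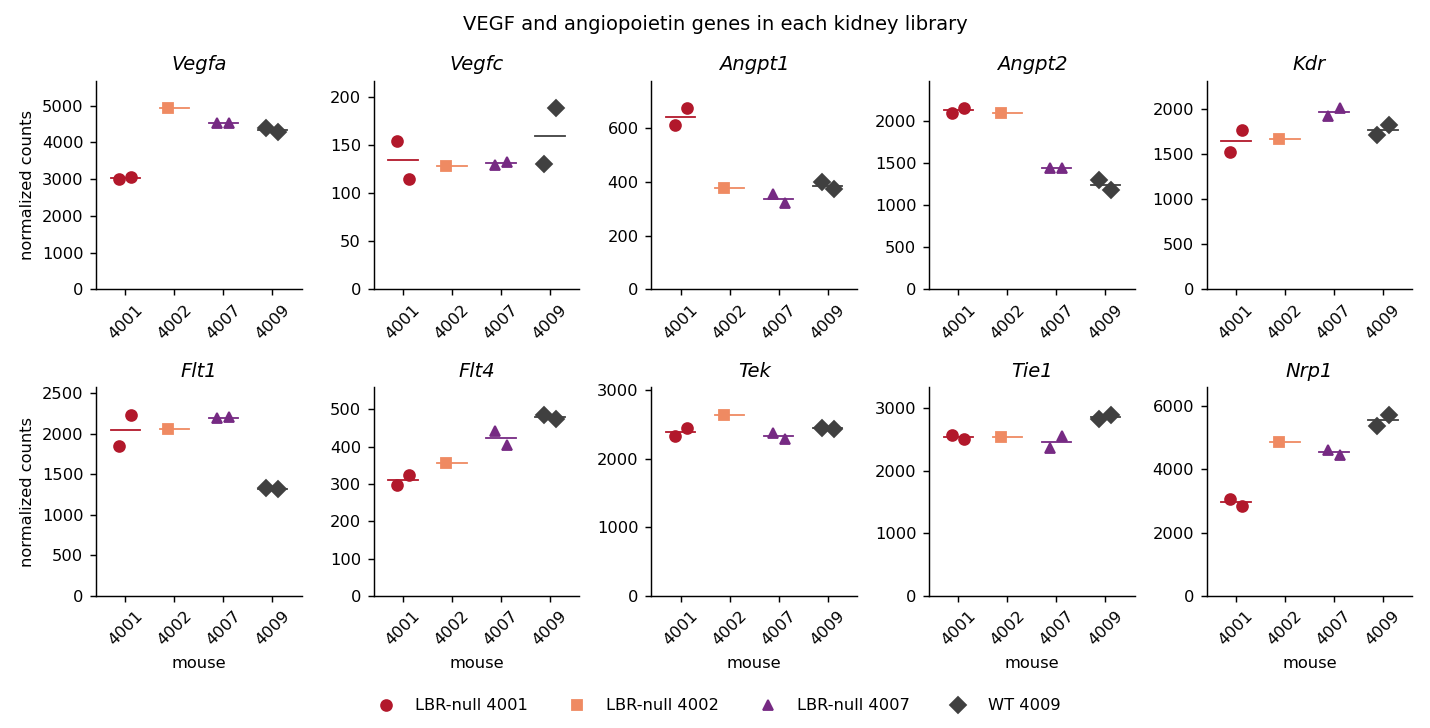
Normalized counts of the 10 genes in each of 7 kidney libraries. Each point is a library, the horizontal line is the mean of a mouse, and each panel starts at 0 on its own scale. The 5 LBR-null libraries lie above both WT libraries (black diamonds) for Flt1 and Angpt2 and below them for Flt4, Tie1 and Nrp1.

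Flt1 (mm9 chr5:148373180-148537587, minus strand) had the largest change of the 10 genes with all mice in the fit. Its normalized counts were 1844 and 2234 in mouse 4001, 2061 in mouse 4002, 2189.5 and 2202 in mouse 4007, and 1325 and 1319 in the WT mouse. All 5 LBR-null libraries were high and the 3 mice lay close together, at 2099 ± 84.8 (SD, n = 3) against 1322 in the WT mouse. The log2 difference was 0.67 ± 0.23 (SE), with a 95% interval from 0.12 to 1.21 and an unadjusted limma p of 0.0247, and the adjusted p was 0.191 by limma, 0.218 by edgeR and 0.156 by DESeq2. Without mouse 4001 the level was 1.61 times the WT level (adjusted p of 0.0763 by limma, against 0.269 without mouse 4002 and 0.622 without mouse 4007), and mouse 4002 alone was 0.64 higher on the log2 scale. The 2 libraries of mouse 4001 differed by 0.28 on that scale, which was more than the range of 0.11 over the 3 LBR-null mice. Without mouse 4007, Flt1 was no longer the gene with the largest change, at 0.63 on the log2 scale against 0.77 for Angpt2.

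Kdr, which carries most of the mitogenic signal of VEGF-A, was measured in the same libraries at 1520.3 and 1768 normalized counts in mouse 4001, 1662 in mouse 4002, 1917 and 2005 in mouse 4007, and 1713 and 1816 in the WT mouse. The groups overlapped, with LBR-null libraries on either side of the WT libraries. The means were 1756 ± 178 (SD, n = 3) and 1764, and the 95% interval of the log2 difference ran from -0.60 to 0.57. Set against each other within a library, Flt1 had between 1.10 and 1.26 reads per read of Kdr in the 5 LBR-null libraries and 0.726 and 0.774 in the WT libraries. The ratio was 1.20 ± 0.0696 (SD, n = 3) in LBR-null mice against 0.749 in the WT mouse, 1.60 times higher, and it does not depend on the scaling of a library. Reads were counted by gene symbol, so the membrane form of VEGFR1 and its soluble, ligand-trapping form cannot be told apart.

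Flt4 (VEGFR3) had 296 and 323 normalized counts in mouse 4001, 356 in mouse 4002, 441 and 406 in mouse 4007, and 486 and 475 in the WT mouse. Every LBR-null library was below both WT libraries, with mouse 4001 the lowest and mouse 4007 nearest to the WT mouse. The log2 difference was -0.42 ± 0.29 (SE), with an adjusted p of 0.493 by limma. Per read of Kdr, Flt4 had 0.206 ± 0.0155 (SD, n = 3) reads in LBR-null mice and 0.272 in the WT mouse. The 3 VEGF receptors thus stood on different sides of the WT level, and the differences among them were not tested.

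Nrp1, the co-receptor, had the largest negative difference of the 10 genes with all mice and libraries in the fit. It had 3061 and 2857 normalized counts in mouse 4001, 4883 in mouse 4002, 4609 and 4467 in mouse 4007, and 5366 and 5732 in the WT mouse. The groups did not overlap, and mouse 4001 was far below the other LBR-null mice. The mean was 4127 ± 1026 (SD, n = 3) against 5549, a log2 difference of -0.46 ± 0.35 (SE) with an adjusted p of 0.527 by limma. Without mouse 4001, Nrp1 was at 0.849 times the WT level. Its rank was then lost, at -0.237 on the log2 scale against -0.306 for Flt4 and -0.295 for Vegfc. With the WT mouse by its first library alone Flt4 was lower than Nrp1, and by its second library alone Vegfc was lower. The exons of Nrp1 share 80 bases with the microRNA gene Mir1903 on the same strand. The same mouse was lowest in podocyte markers, whose summed level was 8697 and 9666 in its 2 libraries, 16755 to 18309 in the other LBR-null libraries and 21592 to 21701 in the WT libraries. The part of these markers in the level of Nrp1 was not tested. In a whole kidney, fewer cells of a type and less RNA per cell cannot be told apart, and this holds for every gene here.

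Tie1 and Tek are the paired receptors of the angiopoietins. Tie1 had 2573 and 2502 normalized counts in mouse 4001, 2544 in mouse 4002, 2362 and 2555 in mouse 4007, and 2832 and 2898 in the WT mouse. The LBR-null mice varied little, at 2513 ± 47.8 (SD, n = 3) against 2865, and the groups did not overlap. The difference was small, at -0.19 ± 0.23 (SE) on the log2 scale, with an adjusted limma p of 0.705. Tek had 2338 and 2444 normalized counts in mouse 4001, 2644 in mouse 4002, 2383 and 2283 in mouse 4007, and 2447 and 2438 in the WT mouse, so that both WT libraries lay inside the LBR-null range. The means of Tek were 2456 ± 165 (SD, n = 3) and 2442, with a 95% interval of the log2 difference from -0.56 to 0.58. The ratio of Tie1 to Tek was 1.03 ± 0.0551 (SD, n = 3) in LBR-null mice and 1.17 in the WT mouse, and its highest LBR-null library, at 1.12, was below the lower WT library, at 1.16.

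**Figure D2:**
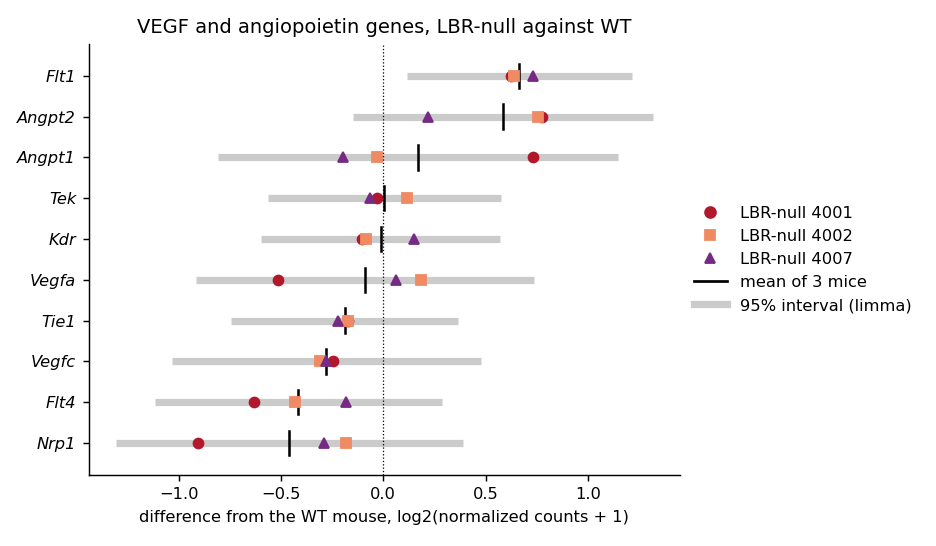
Difference of each LBR-null mouse from the WT mouse on the log2(normalized counts + 1) scale for the 10 genes, ordered by their mean. Points are mice, the black tick is the mean of 3 mice and the grey bar its 95% interval by limma. The interval of Flt1 (0.12 to 1.21) is the only one of the 10 that lies on one side of 0.

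Among the ligands, Angpt2 was the one that separated the groups. It had 2097 and 2150.2 normalized counts in mouse 4001, 2092 in mouse 4002, 1435 and 1444 in mouse 4007, and 1294 and 1182 in the WT mouse. Mice 4001 and 4002 were clearly high and mouse 4007 was only slightly above the WT mouse. The mean was 1885 ± 386 (SD, n = 3) against 1238, a log2 difference of 0.58 ± 0.30 (SE) with an adjusted p of 0.361 by limma, 0.367 by edgeR and 0.390 by DESeq2. Without mouse 4001, Angpt2 was at 1.43 times the WT level.

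Angpt1, the activating ligand of TIE2, did not follow it. It had 611 and 674 normalized counts in mouse 4001, 378 in mouse 4002, 353 and 321 in mouse 4007, and 398 and 375 in the WT mouse. Only mouse 4001 was high, while mouse 4002 lay between the WT libraries and mouse 4007 below them. The log2 difference was 0.17 ± 0.41 (SE) with all mice and -0.11 without mouse 4001, so its direction rested on that mouse. Part of an exon of Angpt1 (283 bases) lies opposite the noncoding gene Gm17473, and whether the counting used strand is not stated, so a few of its reads may belong to that gene. The ratio of Angpt2 to Angpt1 was 3.31, 5.53 and 4.27 in LBR-null mice 4001, 4002 and 4007 and 3.21 in the WT mouse, but one library of mouse 4001, at 3.19, lay between the WT libraries at 3.16 and 3.25.

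Vegfa had 3000.4 and 3069 normalized counts in mouse 4001, 4928 in mouse 4002, 4529.9 and 4519.9 in mouse 4007, and 4396 and 4279 in the WT mouse. Mouse 4001 was low and the other LBR-null mice were slightly above the WT mouse. The log2 difference was -0.09 ± 0.34 (SE) with all mice and 0.12 without mouse 4001. In this gene too the sign depended on that mouse, the one with the lowest sum of podocyte markers, and the part of those markers was not tested. Leaving mouse 4001 out, 6 of the 10 genes did not overlap between the groups, Vegfa being added as higher, against 71% of all genes tested.

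Vegfc, the ligand of VEGFR3, was the least abundant ligand, with 154 and 114 normalized counts in mouse 4001, 128 in mouse 4002, 129 and 132 in mouse 4007, and 129.9 and 188 in the WT mouse. The 2 WT libraries came from the same mouse and differed by 0.53 on the log2 scale, the largest gap between libraries of a mouse for any of the 10 genes. The mean was 131 ± 3.04 (SD, n = 3) against 159 in the WT mouse, a log2 difference of -0.28 ± 0.31 (SE), which was smaller than the gap between the WT libraries.

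Levels can be compared between genes only per length, and the order below is in normalized counts per kilobase of merged exons, averaged over the 4 mice. Vegfa was the highest at 980 per kb and was above Nrp1 (759) in 7 of 7 libraries. Tie1 (529), Tek (520.5) and Angpt2 (467) followed and were not separated, since Tie1 was above Tek in 4 of 7 libraries and Tek above Angpt2 in 4 of 7, and Nrp1 was above Tie1 in 5 of 7. Kdr (242) and Flt1 (164) came next, each above the gene after it in 7 of 7 libraries, then Angpt1 (102), Vegfc (72.8) and Flt4 (47.7). The order of Kdr and Flt1 rests on their merged exons of 7278 and 11583 bases, which join all annotated forms of a gene. By counts without length, Flt1 was above Kdr in all 5 LBR-null libraries. Angpt1 was above Vegfc in 6 of 7 libraries and Vegfc above Flt4 in 7 of 7. The ligand for VEGFR2 was thus present at a higher level per kilobase than either of its receptors, and Angpt2 at a higher level than Angpt1, in all 4 mice.

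**Figure D3:**
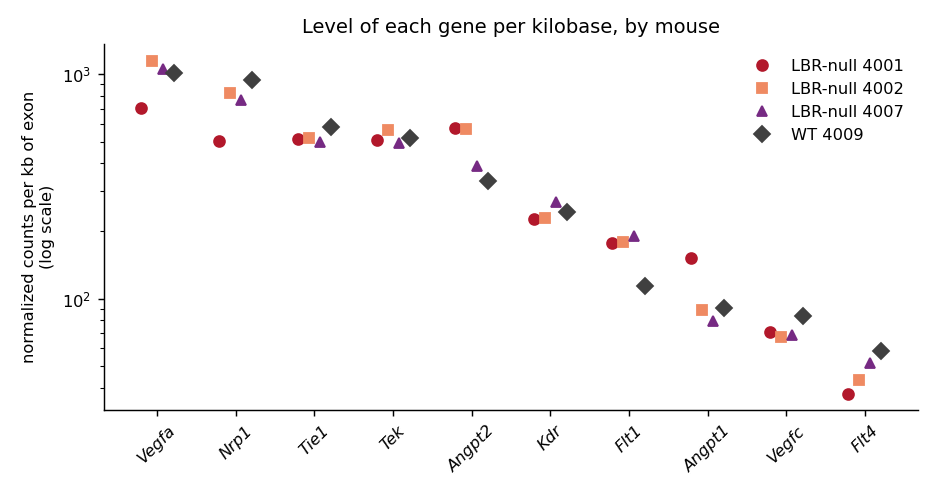
Level of the 10 genes in each mouse, in normalized counts per kb of merged exons on a log scale, ordered by the mean over mice from Vegfa (980) to Flt4 (47.7). Mouse 4001 is lowest of the 4 mice for Vegfa, Nrp1, Kdr and Flt4 and highest for Angpt1 and Angpt2.

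The sequence before the start of 3 genes is shown. These genes differ in CpG content and stand at the ends and the middle of the order by log2 difference with all mice. They are Flt1, with the largest difference, Nrp1, with the largest negative difference, and Tek, with nearly equal levels. The ends of this order depend on single mice, since Flt4 and Vegfc were lower than Nrp1 without mouse 4001 and Angpt2 was higher than Flt1 without mouse 4007. Each run is the 250 bases before the RefSeq start site (table built on GRCm38.p6), matched once and exactly to mm9, 5′ to 3′ on the strand of the gene, with CpG sites in capitals. They lie at chr5:148537588-148537837 (minus strand) for Flt1, chr8:130882723-130882972 (plus strand) for Nrp1 and chr4:94405730-94405979 (plus strand) for Tek.
Flt1: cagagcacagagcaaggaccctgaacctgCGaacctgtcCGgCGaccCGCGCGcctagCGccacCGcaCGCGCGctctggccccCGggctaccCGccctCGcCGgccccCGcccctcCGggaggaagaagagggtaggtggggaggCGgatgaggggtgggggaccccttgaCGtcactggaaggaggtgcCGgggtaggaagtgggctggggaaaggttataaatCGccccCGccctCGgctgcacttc
Nrp1: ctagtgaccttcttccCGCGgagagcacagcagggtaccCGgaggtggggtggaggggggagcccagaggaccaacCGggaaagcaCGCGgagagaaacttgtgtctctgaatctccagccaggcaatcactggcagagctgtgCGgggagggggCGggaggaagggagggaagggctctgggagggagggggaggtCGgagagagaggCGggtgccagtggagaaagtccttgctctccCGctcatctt
Tek: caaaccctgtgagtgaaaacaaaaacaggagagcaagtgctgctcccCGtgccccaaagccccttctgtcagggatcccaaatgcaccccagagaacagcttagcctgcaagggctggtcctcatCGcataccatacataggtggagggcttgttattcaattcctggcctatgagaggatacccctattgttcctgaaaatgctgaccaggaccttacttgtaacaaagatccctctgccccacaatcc

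The Flt1 run held 23 CpG sites, the Nrp1 run 11 and the Tek run 2. CpG content is of interest in this series because the study sorted genes by whether a CpG island lies at their start. Its class with an island required an island by sequence and also a region bound in CxxC affinity purification near the start. The windows below measure only GC and CpG content, so they do not give the study's class of a gene. RefSeq windows, which reach from 250 bases before to 50 bases after a start, were found for 8 of the 10 genes (9 windows, since Vegfa had 2 starts), and none was given for Angpt1 and Angpt2. Of the 9 windows, 4 (those of Vegfc, Kdr, Flt1 and Flt4) had at least 50% GC and a ratio of observed to expected CpG above 0.6, as had 33.4% of 32851 windows in the table. The ratio was 0.78 for Flt1, 0.70 for Flt4, 0.69 for Kdr and 0.96 for Vegfc. It was 0.47 for Nrp1, 0.29 for Tie1, 0.15 for Tek, and 0.41 and 0.56 for the windows of Vegfa. Among the genes with the 4 CpG-rich windows, Flt1 was higher in every LBR-null library and Flt4 lower.

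Short motifs were searched on both strands of the same windows. ACGTG, the core bound by hypoxia-inducible factors, occurred in 1 of 9 windows and in 19.6% of all windows. The match was in the Vegfa window at mm9 chr17:46162113-46162362, which lies inside the annotated gene (46153942-46169326). The other Vegfa window, at chr17:46169327-46169576 directly before the annotated gene, had 0 matches. GGAAG, which holds the core GGAA bound by ETS factors, occurred in 7 of 9 windows and in 71.4% of all. It matched 7 times for Tie1, 4 times for Nrp1 and 3 times for Flt1. TGACGTCA, the element bound by CREB, occurred only in the window of Flt1, where it can be read in the run shown, and in 1.79% of all windows. The CREB element holds neither ACGTG nor GGAAG on either strand, and a match is a description of these letters only.

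Other genes of these pathways gave the setting. Of 22 further genes tested, 0 passed the test, 0 were higher and 3 were lower at an unadjusted limma p under 0.05, and the groups did not overlap for 7 (2 higher and 5 lower), a smaller share than the 51.1% of all genes. Their median log2 difference was 0.03, the median of the 10 genes was -0.05, and the median of all genes tested was 0.01. The 10 genes had medians of -0.14, -0.06 and -0.12 in mice 4001, 4002 and 4007. The genes that stood out were apelin and its receptor.

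Apln, a peptide made by sprouting endothelial tip cells, had 116 and 75.4 normalized counts in mouse 4001, 88.6 in mouse 4002, 38.2 and 32.8 in mouse 4007, and 449.7 and 516 in the WT mouse. Every LBR-null library was far below both WT libraries. The mean was 73.3 ± 32.9 (SD, n = 3) against 483, a log2 difference of -2.83 ± 0.60 (SE), with an adjusted p of 0.108 by limma, 0.103 by edgeR and 0.000177 by DESeq2. Aplnr, the apelin receptor of endothelium, had 289 and 238 normalized counts in mouse 4001, 223 in mouse 4002, 97.8 and 104 in mouse 4007, and 1065 and 1156 in the WT mouse. Its mean was 196 ± 84.7 (SD, n = 3) against 1110.4, a log2 difference of -2.61 ± 0.55 (SE), with an adjusted p of 0.107 by limma, 0.102 by edgeR and 0.000205 by DESeq2. Ligand and receptor were lowest in the same mouse (4007), and without mouse 4001 both passed the test, with adjusted p values of 0.0229 for Apln and 0.0185 for Aplnr by limma. They also passed without mouse 4002 (0.0351 and 0.0344) but not without mouse 4007 (0.200 and 0.151). Apln lies on the X chromosome. Mouse 4002, low in Xist and high in Ddx3y like the WT mouse, differed from it by -2.43 for Apln and -2.31 for Aplnr on the log2 scale. The part of sex in the level of these genes was not tested. The ratio of Apln to Aplnr was 0.371 ± 0.0238 (SD, n = 3) in LBR-null mice and 0.435 in the WT mouse.

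Svep1, a matrix protein that binds angiopoietin-2, was the third lower gene. It had 434 and 459.7 normalized counts in mouse 4001, 413 in mouse 4002, 527 and 552 in mouse 4007, and 1023 and 971 in the WT mouse. Its log2 difference was -1.10 ± 0.27 (SE), with an adjusted p of 0.117 by limma, 0.113 by edgeR and 0.0209 by DESeq2, and by limma of 0.0426, 0.126 and 0.340 without mice 4001, 4002 and 4007 in turn. Over 2244 bases its exons lie opposite the noncoding gene Gm17243, and its value is uncertain to that extent. Dok2, an adaptor that binds activated TIE2 and is also expressed by blood cells, was the only one of the 22 at least 2-fold higher, at 272 ± 87.8 (SD, n = 3) against 131. Its adjusted p was 0.296 by limma. Without mouse 4001 it was at 2.47 times the WT level, with an adjusted p of 0.0290 by limma, against 0.376 without mouse 4002 and 0.697 without mouse 4007. The summed level of neutrophil markers was 1335 and 878 in mouse 4001, 411 in mouse 4002, 2639 and 2521 in mouse 4007, and 79.6 to 85.0 in the WT mouse. Dok2 was at 171, 327 and 319 in LBR-null mice 4001, 4002 and 4007, so the order of the mice was not the same. The part of these markers in the level of Dok2 was not tested.

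**Figure D4:**
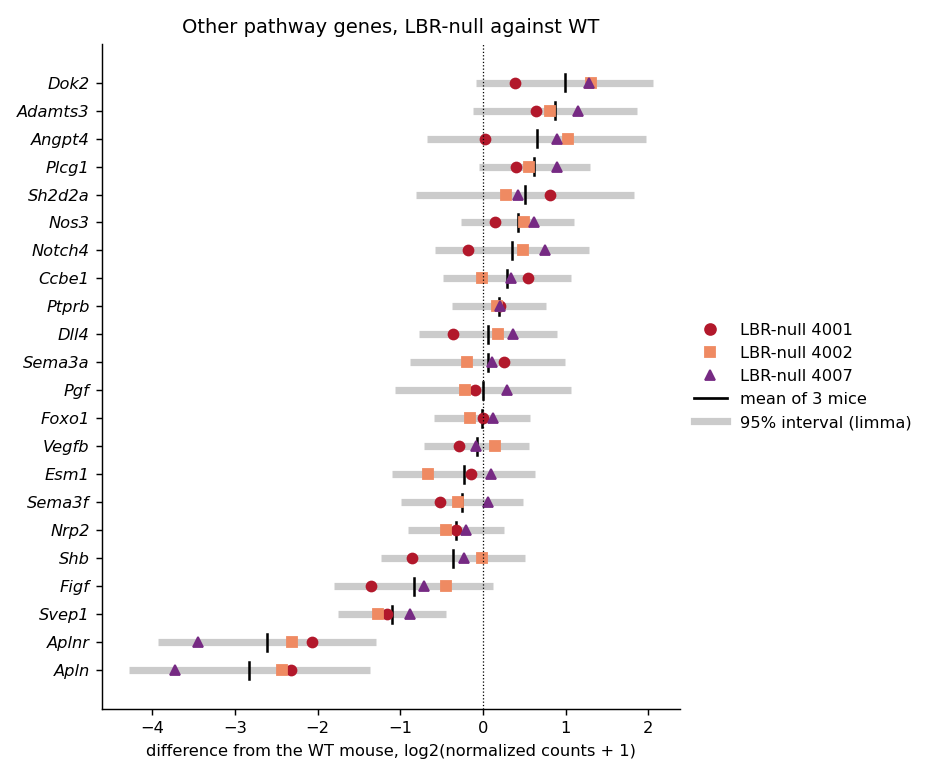
Difference of each LBR-null mouse from the WT mouse on the log2(normalized counts + 1) scale for 22 other genes of the VEGF, angiopoietin, apelin and Notch pathways. Points are mice, ticks are means and grey bars are 95% intervals by limma. Apln, Aplnr and Svep1 are below 0 in all 3 mice, with intervals that do not reach 0.

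Markers of the cell types that carry these genes are given for comparison. Of 14 endothelial markers, 0 were higher or lower at an unadjusted limma p under 0.05, 3 did not overlap between the groups (all lower, against 25.7% of all genes), and the median log2 difference was -0.10. The median was -0.55 for mouse 4001 but 0.12 and 0.07 for mice 4002 and 4007. Of the 14, 5 lay above 0 and 9 below, and the gene furthest above, Egfl7, was at 3445 ± 710.4 (SD, n = 3) against 2460.1, with overlapping groups. The 3 genes without overlap were lower in all 3 LBR-null mice. Cdh5, the cadherin of endothelial junctions, was at 1875 ± 204 (SD, n = 3) against 2702, Eng, a co-receptor of TGF-beta ligands, at 3656 ± 975 (SD, n = 3) against 5973, and Icam2, an adhesion molecule, at 333 ± 32.5 (SD, n = 3) against 470.1. Egfl7 and these 3 genes were named after their values were seen. The higher level of Flt1 and Angpt2 in mouse 4001 stood beside this lower median, and in mice 4002 and 4007 beside medians near 0. Kdr and Tek in mouse 4001 differed from the WT level by -0.10 and -0.03 on the log2 scale. The most abundant of these markers, Plvap, a protein of capillary fenestrae, was at 7469 ± 1829 (SD, n = 3) against 9395 in the WT mouse, and Pecam1 was at 4286 ± 514 (SD, n = 3) against 4149.

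Lymphatic markers were tested for 5 of 6 genes, since Ccl21a was listed at 0 in all libraries. Pdpn was at 361 ± 28.7 (SD, n = 3) against 435. Reln, which lymphatic endothelium shares with other cells, was at 309 ± 39.7 (SD, n = 3) against 105, and was the only gene of this list with an unadjusted limma p under 0.05 (adjusted p = 0.101). DESeq2 put the adjusted p of Reln under 0.05, and edgeR did not. The median of the list was 0.34, from 0.58 for mouse 4001 to -0.11 and 0.17 for mice 4002 and 4007, each over the 5 tested genes. The pericyte and mesangial list (6 genes) had a median of -0.16, with Pdgfrb, the receptor of pericytes, at 2003 ± 544 (SD, n = 3) against 2684 in the WT mouse and Mcam at 943 ± 204 (SD, n = 3) against 862.

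Epithelial and immune lists are given next. The podocyte list (7 genes) had a median of -0.68 (-1.33 for mouse 4001, -0.45 for mouse 4002 and -0.24 for mouse 4007) and 5 genes without overlap, all lower (against 25.7% of all genes), with Podxl at 8045 ± 2291 (SD, n = 3) against 11458. The proximal tubule list (6 genes) had a median of -1.63, with 5 genes lower and 1 higher at an unadjusted limma p under 0.05, and Slc34a1, a phosphate transporter, was at 21038 ± 7499 (SD, n = 3) against 64099, and Lrp2 at 8188 ± 3368 (SD, n = 3) against 23320.0. The list of the thick ascending limb (4 genes) had a median of -0.07, but the mice went in opposite directions, with 0.58 for mouse 4001, -0.13 for mouse 4002 and -0.66 for mouse 4007, and with Umod at 38851.5 ± 23673 (SD, n = 3) against 38395 and Slc12a1 at 55998.5 ± 16217 (SD, n = 3) against 30771. Neutrophil markers (8 genes) had a median of 3.79 with 7 genes higher at that p, S100a8 being at 513 ± 377 (SD, n = 3) against 50.1 and S100a9 at 433 ± 402 (SD, n = 3) against 8.23. Macrophage markers (8 genes) had a median of -0.64 with 1 higher and 2 lower, and Csf1r was at 1190.0 ± 112 (SD, n = 3) against 1609 and C1qa at 355 ± 72.0 (SD, n = 3) against 575. How far these lists move the values of the 10 genes was not tested.

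**Figure D5:**
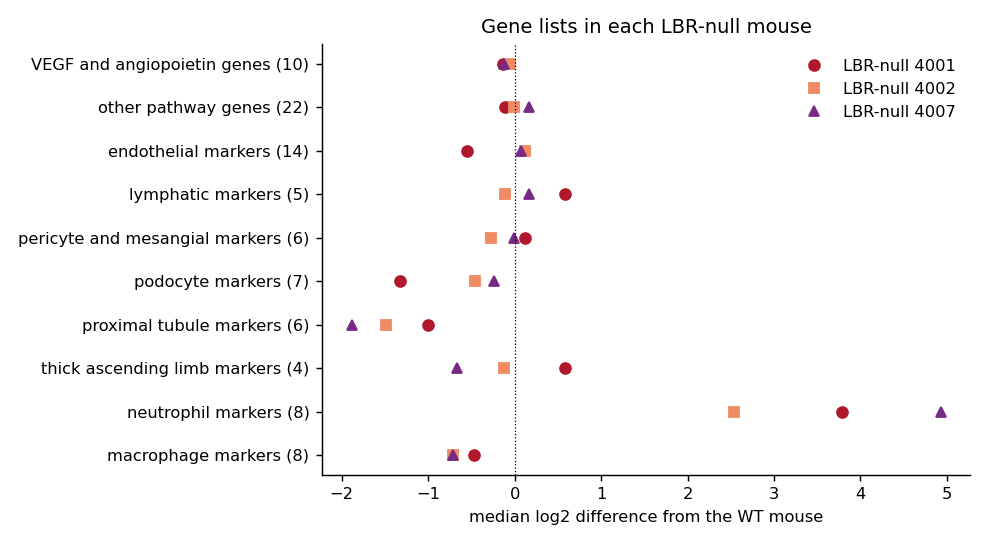
Median log2 difference from the WT mouse of each gene list in the 3 LBR-null mice, with the number of genes tested in brackets. The VEGF and angiopoietin genes (-0.14, -0.06 and -0.12) lie near 0 in all 3 mice, neutrophil markers lie far above 0 and proximal tubule markers below.

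Genes were ranked by Pearson correlation with the mean log2 level of Kdr, Flt1, Flt4, Tek and Tie1 over the 7 libraries. The search covered 13048 genes with a mean of at least 50 normalized counts. These receptors did not share a pattern, with r from -0.93 (Flt1 and Tie1) to 0.57 (Kdr and Flt4). Their mean thus partly cancels opposite moves and does not stand for any single receptor. The genes most like this mean were Taf4b (r = 0.988), Rnf145 (0.986), Phc3 (0.984), Fat4 (0.981) and Ttll4 (0.980). The 7 libraries came from 4 mice, and the mean of the receptors moved only between 10.43 and 10.64 on the log2 scale, so these values describe these libraries. None of the 5 was an endothelial gene of the lists, and their log2 differences between LBR-null and WT mice lay between 0.01 and 0.15. Among the 10 genes themselves, levels over the same libraries went most closely together for Vegfa and Nrp1 (r = 0.88) and most oppositely for Angpt2 and Flt4 (r = -0.94) and for Vegfa and Angpt1 (r = -0.94), and mouse 4001 lay at one end of each of these pairs.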

How the data were processed

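RNA of pulverized right kidneys was selected for poly(A) and sequenced as 150 bp paired ends. The authors aligned reads to mm9 (STAR 2.6.0 and DESeq2 1.25.1 in the submitters' processing notes) and deposited a signal per gene, namely read counts divided by a size factor. The counting program is not given in the sources used here. All deposited values (100%) were whole multiples of the worth of 1 read, within 0.01 read, and reads were recovered by division. Libraries were averaged within a mouse. Library numbers within a mouse do not pair mice. Genes with at least 5 normalized counts on average (17283) were fitted with limma 3.58.1 in R 4.3.3 (eBayes, trend), on the log2 scale with a pseudocount of 1 and Benjamini-Hochberg adjustment. The main call was an adjusted p under 0.05 and a 2-fold change, and 2 residual degrees of freedom remained. edgeR 4.0.16 and DESeq2 1.42.0 were run on recovered reads summed per mouse. Alternatives changed pseudocount, filter, scaling, mice, libraries and replicate unit. Positions and exon lengths came from GENCODE vM1. Steps were tested on simulated data. The 10 genes and the lists were chosen with earlier results of these data known. Named genes were the 10, other pathway and endothelial genes with an unadjusted p under 0.05 or a 2-fold difference, the most abundant markers of other lists, and the 5 most correlated genes. Egfl7, Cdh5, Eng and Icam2 fall outside this rule. One marker that this rule names is not reported here.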

Additional observations from a re-analysis of the deposited data

How the results depend on the processing

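None of the 10 genes passed an adjusted p of 0.05 under any of 15 alternatives, and 135 of 150 log2 differences kept their sign. Flt1, Angpt2, Flt4, Tie1 and Nrp1 kept theirs under all 15, with Flt1 between 0.63 and 0.69. The signs that turned belonged to Vegfa, Vegfc, Angpt1, Kdr and Tek. Tek was at -0.0118 with edgeR, -0.00789 with DESeq2, -0.00799 with TMM scaling and -0.000491 with equal totals. With the WT mouse by its first library alone, Vegfc was at 0.0117, Kdr at 0.0308 and the median of the 10 genes at 0.00752. Leaving out each LBR-null mouse in turn gave Vegfa -0.227 to 0.123, Angpt1 -0.113 to 0.352, Kdr -0.0939 to 0.0332, Tek -0.0483 to 0.0418 and the median -0.130 to -0.0443. For Vegfa and Angpt1 the turn came without mouse 4001. The correlations between mice of the difference between library 1 and library 2 were -0.0163, -0.00491 and -0.0421, so library numbers share nothing but a number. With that number as a replicate block over 6 libraries (mouse 4002 left out), the median was -0.123, Kdr 0.0237 and Tek -0.0487. The same libraries with no block, an alternative chosen after seeing the data, gave -0.123, 0.0237 and -0.0487, and calls over all genes were 1313 with the block and 1486 without it. With 7 libraries and the mouse as a random effect, 847 genes were called, 0 of them among the 10. That fit counts libraries of a mouse, and the main limma fit called 0, edgeR 28 and DESeq2 1109. The cause of these differences was not tested. The 5 genes that did not overlap were 5 or 6 under the 7 alternatives that change the libraries or their scaling. Apln, Aplnr and Svep1 stayed lower under all 15 alternatives, and passed an adjusted p of 0.05 under 6, 6 and 5 of them, with a range of 0.000177 to 0.238 for Apln, 0.000205 to 0.238 for Aplnr and 0.00969 to 0.340 for Svep1. For each of these genes the passes include the random-effect fit and both fits on 6 libraries. Those fits count libraries of a mouse, so these passes are weaker than passes of fits on mice. The lowest value of Svep1 came from the fit with no block, which was chosen after seeing the data. Dok2 passed under 1 alternative, without mouse 4001. limma calls over all genes were 1163 without mouse 4001, 625 without mouse 4002 and 0 without mouse 4007. The single WT mouse limits every comparison, and mice 4001 and 4007 differed from it in Xist and Ddx3y.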
